A study of Saccharomyces cerevisiae with 56 samples.

Results

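Yeast cells carry DNA outside the 16 nuclear chromosomes, and pieces of it can be captured when a chromosome break is rejoined. Of 1620 donor segments listed for insertions at the HO-induced double-strand break (DSB) at *MAT***a**, 52 lay on the mitochondrial sequence and 21 on a sequence that the lists name mp. The members were chosen by the name of the donor sequence alone, and a segment is a stretch of donor DNA found in a repair product. The 52 mitochondrial segments made up 3.21% of all segments and belonged to 48 insertions, and the 21 mp segments made up 1.30% and belonged to 21 insertions. What the mp sequence is was not given in the sources used here, so it is described by its positions alone.

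The mitochondrial genome of budding yeast is a small, AT-rich DNA present in many copies per cell. It encodes subunits of the respiratory chain and of ATP synthase, a ribosomal protein, rRNAs, tRNAs and the RNA of RNase P, with long spacers between the genes. Several of its genes have introns that encode maturases and homing endonucleases. Mitochondrial DNA that reaches the nucleus can be joined into chromosome breaks by non-homologous end joining, in yeast as in other eukaryotes.

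*Break-Ins* sequences the *MAT***a** junction amplified from pooled colonies that survived a galactose-induced HO break. All strains were haploid JKM139 derivatives with *hml*::*ADE1*, *hmr*::*ADE1* and *ade3*::*GAL10*::*HO*, so that no homologous donor cassette was left, and a strain with a wild-type repair background was not analysed here. The genotypes in which such segments were found were *rtt105*Δ (*rtt105*::*hphMX*, lacking a regulator of the single-strand binding complex RPA), *rad27*Δ (*rad27*::*klTRP1*, lacking the flap endonuclease), *sgs1*Δ (*sgs1*::*KanMX*, lacking a RecQ helicase) and *exo1*Δ (*exo1*::*TRP1*, lacking a resection exonuclease). The others were the double mutants *sgs1*Δ *exo1*Δ, *rfa1*-t33 *rad27*Δ, *rtt105*Δ *rad27*Δ and *rtt105*Δ *tel1*Δ (*tel1*::*TRP1*, lacking a checkpoint kinase). No member was listed in *rfa1*-t33 (a mutant of the large RPA subunit, labelled RFA1-t33), *lig4*::*klTRP1*, *mre11*::*hphMX*, *mre11*-H125N::*URA3*, *pol32*::*natMX*, *rad30*::*kanMX*, *rev3*::*klTRP1* or *rtt105*Δ *rad1*Δ (*rad1*::*klTRP1*). The cells were incubated at 30°C, except that the 14 *rad27*Δ libraries comprised 3 labelled 23°C and 3 labelled 37°C. Lists were used for 16 genotypes from 54 libraries and 2105688 colonies, with 672 to 140000 colonies per library over the series. A list pools the libraries of its genotype, and libraries could not be told apart, so tests and intervals cover the counting error of insertions and not the spread between cultures.

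The read names assign each segment to 1 of 8 sequencing runs, numbered here 1 to 8, and the members were unevenly spread over them. All 42 mitochondrial and all 8 mp segments of *rtt105*Δ came from run 8. In the lists used, no other genotype had an insertion outside the mating-type cassettes in that run. Run 7, the other run of *rtt105*Δ, held 40 of its insertions outside the mating-type cassettes and no member. The colonies behind a run are not known. Run 8 and the *rtt105*Δ genotype therefore cannot be told apart for the frequencies per colony given below, and the share of insertions is given by run after them.

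Mitochondrial insertions were most frequent in *rtt105*Δ. It had 38 insertions with at least 1 mitochondrial segment among 374304 colonies of 8 libraries, or 1.02 per 10000 colonies (exact 95% interval 0.718 to 1.39). Here and below, colonies are those of the labels and include any in which HO had not cut. *mre11*-H125N, a nuclease-dead form of Mre11 that had few insertions of any kind, had 0 among 144320 colonies, so that up to 0.208 per 10000 (3 counts) would have been compatible with the count. The difference was significant over 15 genotypes compared with *mre11*-H125N (adjusted p = 8.09e-05, two-sided Fisher's exact test). *rtt105*Δ was the only one of the 15 to pass. Insertions of any kind outside the mating-type cassettes numbered 560 in *rtt105*Δ and 6 in *mre11*-H125N. Whether the mitochondrial ones differed beyond that general difference was not tested.

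The remaining 10 mitochondrial segments were each the only donor of its insertion and fell in 6 genotypes. *rad27*Δ had 3 among 820032 colonies, or 0.0366 per 10000 (0.00754 to 0.107), the lowest frequency above 0. It was 0.0499 without the colonies of the libraries labelled 37°C and 0.0628 with those labelled 30°C alone, still the lowest above 0. *sgs1*Δ had 3 among 106080 colonies, or 0.283 per 10000 (0.0583 to 0.826). The other 4 genotypes had 1 insertion each. Their frequency was 0.184 per 10000 in *exo1*Δ (0.00467 to 1.03), 0.668 in *rfa1*-t33 *rad27*Δ (0.0169 to 3.72), 0.0894 in *rtt105*Δ *rad27*Δ (0.00226 to 0.498) and 0.126 in *rtt105*Δ *tel1*Δ (0.00319 to 0.702). The interval of *rfa1*-t33 *rad27*Δ, from 14976 colonies, holds that of *rtt105*Δ, so an order between these 2 genotypes was not detectable at this depth. The intervals of *exo1*Δ and *sgs1*Δ also overlap that of *rtt105*Δ, and neither genotype was tested against it. In the 8 genotypes without a mitochondrial insertion other than *mre11*-H125N, a count of 0 allows between 0.460 and 1.02 per 10000. The lowest of these limits, 0.460, is that of *lig4*::*klTRP1*. The study's normalization by HO cutting leaves only a small part of the colonies of *lig4*::*klTRP1* and *mre11*::*hphMX* as repair products. Per repair product, their counts of 0 therefore allow far higher frequencies.

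**Figure D1:**
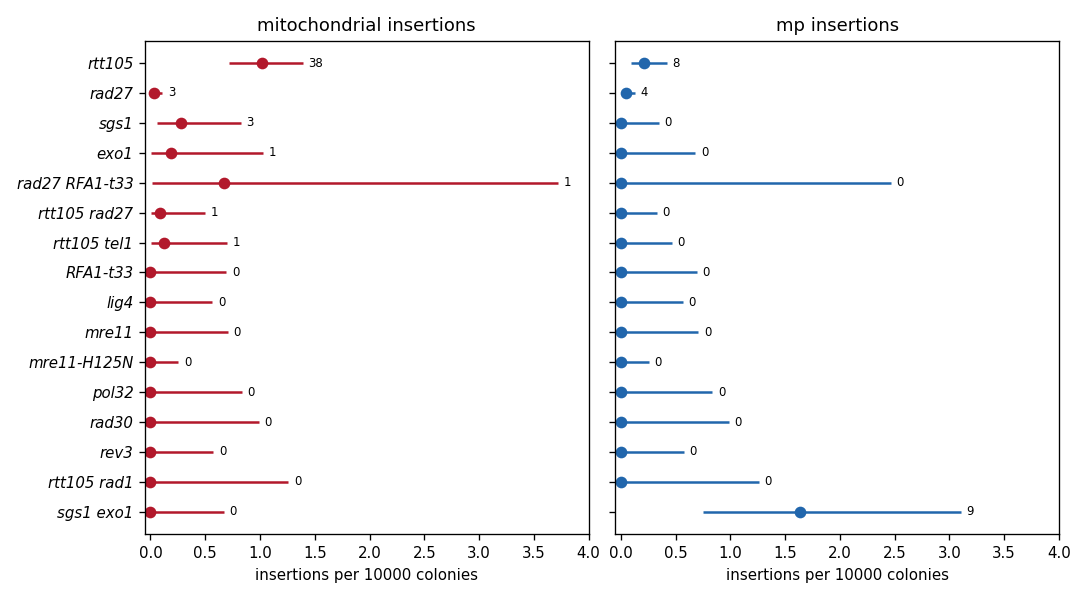
Mitochondrial (left) and mp (right) insertions per 10000 colonies in 16 genotypes. Points are frequencies, lines are exact 95% intervals and the digits are the insertions counted. *rtt105*Δ stands at 1.02 for mitochondrial and *sgs1*Δ *exo1*Δ at 1.64 for mp insertions.

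A second deletion, another RPA mutant and *rad27*Δ were then set beside *rtt105*Δ. The frequency of mitochondrial insertions in *rtt105*Δ was 11.4 times that in *rtt105*Δ *rad27*Δ (Fisher's exact test, adjusted p = 0.00215 over 5 comparisons). It was 8.06 times that in *rtt105*Δ *tel1*Δ (adjusted p = 0.0146, Fisher's exact test), and 27.8 times that in *rad27*Δ (adjusted p = 1.27e-15, Fisher's exact test). The last ratio was 20.3 without the *rad27*Δ colonies labelled 37°C and 16.2 with those labelled 30°C alone (adjusted p = 5.15e-10, Fisher's exact test). Against *rfa1*-t33, with 0 among 53184 colonies, the frequency in *rtt105*Δ was higher (adjusted p = 0.0146, Fisher's exact test). It was 1.80 times the 0.564 per 10000 that the count of 0 allows. That value leaves out the counting error of *rtt105*Δ, so the true ratio may be smaller. The comparison with *rtt105*Δ *rad1*Δ did not pass (adjusted p = 0.111, Fisher's exact test), because 0 among 29280 colonies allows 1.02 per 10000, as high as in *rtt105*Δ itself. Counting the colonies of the first library alone, to which the *rtt105*Δ *tel1*Δ list is attached, ended the call for that double mutant (adjusted p = 0.151, Fisher's exact test).

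As a share of all insertions outside the mating-type cassettes, which needs no number of colonies, mitochondrial insertions were 38 of 560 in *rtt105*Δ (6.79%, 4.85 to 9.20). The share was 3 of 328 in *rad27*Δ (0.915%, 0.189 to 2.65) and 1 of 299 in *rtt105*Δ *rad27*Δ (0.334%, 0.00847 to 1.85). Both differed from *rtt105*Δ by Fisher's exact test (adjusted p = 4.42e-05 and 5.56e-06). *rtt105*Δ *tel1*Δ, with 1 of 19 (5.26%, 0.133 to 26.0), did not pass (adjusted p = 1, Fisher's exact test), nor did *rfa1*-t33, with 0 of 40, which allows a share of up to 7.50% (adjusted p = 0.277, Fisher's exact test). *rtt105*Δ *rad1*Δ had only 2 such insertions in all. *sgs1*Δ had 3 of 42, or 7.14% (1.50 to 19.5), an interval that holds the share of *rtt105*Δ.

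By run, the share of mitochondrial insertions in *rtt105*Δ was 38 of 520 in run 8 (7.31%, 5.22 to 9.89) and 0 of 40 in run 7, which allows up to 7.50%. The 2 runs did not differ by Fisher's exact test (p = 0.0989). Run 7 was the only run with such insertions of both *rtt105*Δ and another genotype. Within it, *rad27*Δ had 2 mitochondrial insertions of 18 (11.1%, 1.38 to 34.7) and *rtt105*Δ none of 40 (Fisher's exact test, p = 0.0926). The direction within that run was thus opposite to that of the pooled lists. In its other runs *rad27*Δ had 1 of 258 (run 3, 0.388%) and 0 of 52 (run 2). Run 2 also held all 3 mitochondrial insertions of *sgs1*Δ.

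**Figure D2:**
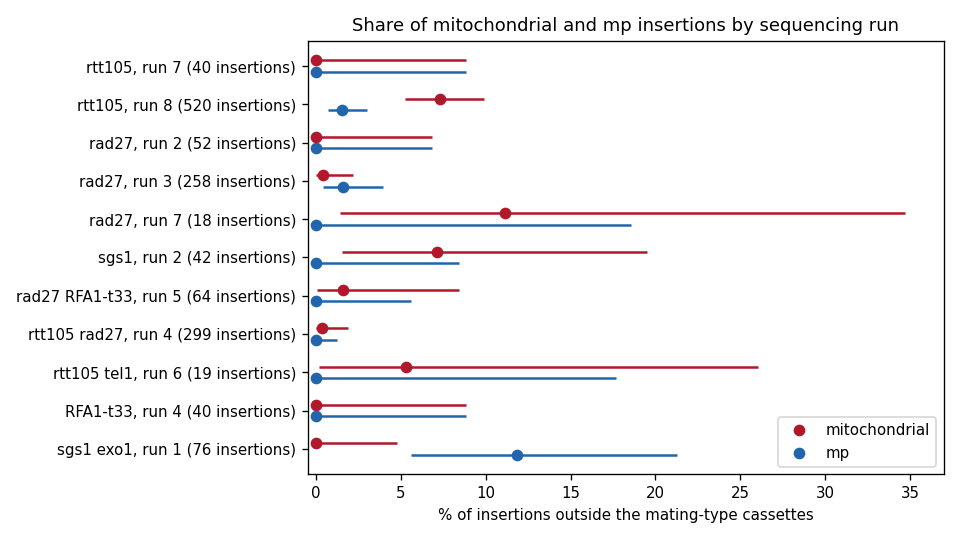
Mitochondrial (red) and mp (blue) insertions as a percentage of insertions outside the mating-type cassettes, for each genotype and sequencing run with at least 15 such insertions. Points are shares and lines exact 95% intervals. The members of *rtt105*Δ lie in run 8 alone, and *rad27*Δ has its highest mitochondrial share, 11.1%, in run 7.

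Mitochondrial segments of *rtt105*Δ were shorter than the nuclear segments of the same mutant. The 42 mitochondrial segments were 41 to 245 bp long with a median of 104 bp, while 282 nuclear segments, outside mating-type, Ty and rDNA sequences, had a median of 137.5 bp and reached 463 bp. Longer than the pooled median of 132 bp were 10 mitochondrial (23.8%) and 148 nuclear segments (52.5%; median test by Fisher's exact test, two-sided, p = 0.000483). Only 2 mitochondrial segments (4.76%) were at least 200 bp long, against 92 nuclear segments (32.6%). The Ty segments of *rtt105*Δ, from retrotransposons, had a median of 164 bp and its rDNA segments one of 154 bp.

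In the other genotypes the mitochondrial segments were too few for a test, and their lengths stand beside those of nuclear segments as values. In *rad27*Δ they were 61, 134 and 242 bp long, against a nuclear median of 60 bp among 312 segments, so that all 3 lay above that median. In *sgs1*Δ they were 66, 161 and 240 bp long, against a median of 284 bp among 11 nuclear segments. The single segments were 128 bp long in *rfa1*-t33 *rad27*Δ (nuclear median 103 bp), 133 bp in *rtt105*Δ *rad27*Δ (68 bp), 139 bp in *rtt105*Δ *tel1*Δ (105 bp) and 140 bp in *exo1*Δ, which had no nuclear segment. The mitochondrial segments of *rad27*Δ and of the 3 double mutants thus all exceeded the nuclear median of their genotype, and in *sgs1*Δ all 3 lay below it.

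**Figure D3:**
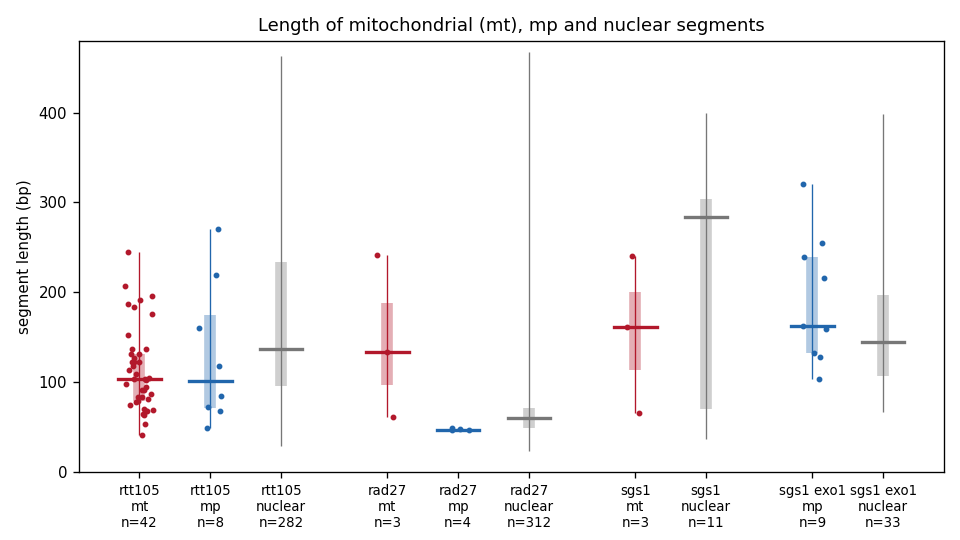
Length in bp of mitochondrial (red), mp (blue) and nuclear (grey) segments in the 4 genotypes with at least 3 members of a kind. Points are single segments, thick bars span the quartiles, horizontal lines are medians and thin lines the full range. The mp segments of *rad27*Δ lie between 47 and 49 bp.

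The mitochondrial segments came from all along the sequence, from position 2049 to 84494 of the R64 assembly, where the annotation reaches 85777. Together they covered 5963 bp (6.95%), and no base was covered more than 2 times. In stretches of 10 kb the number of segment midpoints ranged from 2 to 11, with the most in the stretch from 10001 to 20000 and the fewest in that from 40001 to 50000 and in the last, shorter one. The longest stretch without a segment ran over 11.8 kb, from 35275 to 47092. It holds the whole of *COB*, the cytochrome b gene, and of *OLI1*, which encodes an ATP synthase subunit. The next longest ran over 6.67 kb, from 77185 to 83856, and holds *COX3*, a cytochrome oxidase subunit gene. Positions are those of the reference strain, and the mitochondrial sequence of the strains used was not analysed here.

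Most segments were distinct. No 2 mitochondrial segments had both ends within 5 bp of each other, and 4 pairs overlapped. In *rtt105*Δ, segments at 53756 to 53962 and 53757 to 53825 lay on the same strand with left ends 1 bp apart, and their right ends differed by 137 bp. Segments at 58205 to 58327 and 58262 to 58348 of *rtt105*Δ shared 66 bp. The other pairs joined genotypes. An *rtt105*Δ segment at 18982 to 19076 lay inside an *sgs1*Δ segment at 18967 to 19206, and an *sgs1*Δ segment at 72632 to 72792 shared 26 bp with an *rfa1*-t33 *rad27*Δ segment at 72767 to 72894. All 4 pairs were on the same strand.

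Genes and spacers were both used as donors. The annotation places 39.4% of the mitochondrial sequence in genes, introns included, and 42.3% of the segment bases lay there, or 37.8% for *rtt105*Δ alone. Of the 52 segments, 20 lay wholly within a gene, 3 reached into one and 29 lay wholly in spacers. The spacer segments were a median of 445 bp from the nearest gene (23 to 3659 bp), and 5 of them were within 100 bp of one. The table of genes gives no exons, so that exon and intron could not be separated.

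Among the genes of the respiratory chain and ATP synthase, 2 of 7 held a segment. *COX1*, the gene of cytochrome oxidase subunit I (Q0045, 13818 to 26701), held the most, with 13 segments, or 1.01 per kb of gene. Of these, 11 were from *rtt105*Δ, 1 from *rad27*Δ (15394 to 15527) and 1 from *sgs1*Δ (18967 to 19206). The shortest mitochondrial segment of all, 41 bp from *rtt105*Δ at 13804 to 13844, spans the annotated start of *COX1* and has 27 bp in it. *COX1* is long because of its introns, and 5 of the reading frames encoded in them are annotated from its first base, so that the same segments also count for *AI1* (6 segments), *AI2* (7), *AI3* (9), *AI4* (10) and *AI5_ALPHA* (10). These 5 frames encode maturases and endonucleases of the introns. *AI5_BETA*, another frame within *COX1* (24156 to 25255), held none. *COX2*, the gene of subunit II (73758 to 74513), was the other gene of the class. An *rtt105*Δ *rad27*Δ segment at 73936 to 74068 lay inside it, and an *rtt105*Δ *tel1*Δ segment at 73624 to 73762 reached 5 bp into it. *ATP6*, *ATP8*, *OLI1*, *COB* and *COX3* held none. The class makes up 26.5% of the sequence and 27.7% of the segment bases.

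Among genes for mitochondrial translation, *21S_RRNA*, the large ribosomal RNA gene (58009 to 62447), held 6 segments, all from *rtt105*Δ, or 1.35 per kb. Of these, 3 (61261 to 61392, 61512 to 61579 and 61694 to 61791) overlapped *SCEI*, the reading frame of the homing endonuclease I-SceI that lies in its intron. *15S_RRNA*, the small ribosomal RNA gene, held none. The rRNA class makes up 7.10% of the sequence, 9.52% of all segment bases and 12.4% of those of *rtt105*Δ. *VAR1*, which encodes a protein of the small ribosomal subunit (48901 to 50097), held a single segment, of 242 bp on the minus strand from *rad27*Δ (49815 to 50056). Of 24 tRNA genes, only *tM(CAU)Q1*, a methionine tRNA gene (72630 to 72705), was overlapped, by 74 bp of the *sgs1*Δ segment at 72632 to 72792. *RPM1*, the RNase P RNA gene, and *Q0255* held none.

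**Figure D4:**
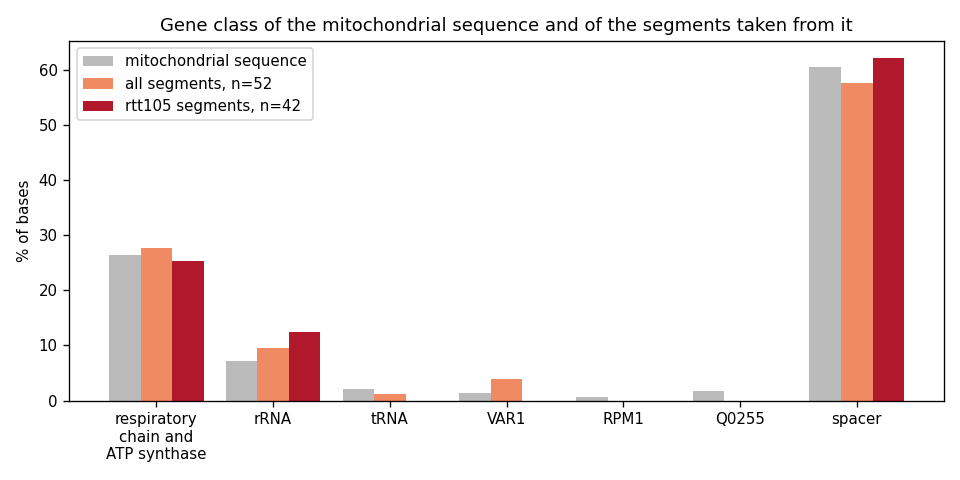
Percentage of bases by gene class in the mitochondrial sequence (grey), in all 52 segments (orange) and in the 42 segments of *rtt105*Δ (red). Spacer is the largest class in all 3, at 60.6% of the sequence, 57.7% of all segment bases and 62.2% of those of *rtt105*Δ.

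Segments in spacers were spread among many intervals. In *rtt105*Δ, 5 lay between *ATP6* and *tE(UUC)Q* (29712 to 35274), and the interval between *VAR1* and *21S_RRNA* held 6, the last of which ended 23 bp before *21S_RRNA*. The longest mitochondrial segment, 245 bp at 3052 to 3296 in *rtt105*Δ, lay between *tP(UGG)Q* and *15S_RRNA*. In *exo1*Δ the segment lay 230 bp after *21S_RRNA* (62678 to 62817). The third segment of *rad27*Δ, 61 bp at 69598 to 69658, lay between *tR(ACG)Q2* and *tA(UGC)Q*, and that of *sgs1*Δ at 71043 to 71108 between *tY(GUA)Q* and *tN(GUU)Q*.

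The strand of the mitochondrial segments was close to even. With respect to the reference, 28 of 52 were on the plus strand (53.8%, 39.5 to 67.8; exact binomial test, two-sided, p = 0.678), and 23 of 42 were in *rtt105*Δ.

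Complex insertions, which join several donor segments, held 7 mitochondrial segments, all in *rtt105*Δ. They belonged to 3 insertions, and in each every partner was mitochondrial too. The first joined 3 segments in the order 25475 to 25611 (137 bp, plus), 17035 to 17137 (103 bp, minus) and 83857 to 83948 (92 bp, plus), or 332 bp in all. The first and the middle segment lie in *COX1*, 8.34 kb apart, and the last in the spacer between *COX3* and *tM(CAU)Q2*. The next joined 12370 to 12506 (137 bp, plus) with 6204 to 6387 (184 bp, plus), 5.98 kb apart and both in spacers, the second of them 158 bp before *15S_RRNA*. The last joined 57881 to 57985 (105 bp, minus), the segment 23 bp before *21S_RRNA*, with 2049 to 2113 (65 bp, plus), 55.8 kb away. None of these insertions joined neighbouring pieces, since the nearest partners were 5.98 kb apart. Distances were taken along the reference read as a linear sequence, and not across its ends.

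Of 40 complex insertions of *rtt105*Δ, 8 joined segments of different classes (7 Ty with nuclear and 1 Ty with a mating-type cassette), and none of the 8 held a mitochondrial or mp segment. Mitochondrial segments were in complex insertions as 7 of 42 (16.7%, 6.97 to 31.4) and nuclear segments as 41 of 282 (14.5%, 10.6 to 19.2; Fisher's exact test, two-sided, p = 0.649). By insertion these were 3 of 38 (7.89%) and 24 of 265 (9.06%; Fisher's exact test, p = 1).

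The mp segments had another distribution over genotypes. They were found in 3 genotypes, as 9 in *sgs1*Δ *exo1*Δ, 8 in *rtt105*Δ and 4 in *rad27*Δ, and each was the only donor of its insertion. *sgs1*Δ *exo1*Δ, in which long-range resection is defective, had 9 among 55000 colonies of 4 libraries, or 1.64 per 10000 (0.748 to 3.11). It passed against *mre11*-H125N, with 0 of 144320 (adjusted p = 0.000139 over 15 comparisons, Fisher's exact test), and was the only one of the 15 to do so. Insertions outside the mating-type cassettes numbered 76 in *sgs1*Δ *exo1*Δ and 6 in *mre11*-H125N, and the mp shares of these were not tested. All 9 mp insertions came from run 1. In the lists used, no other genotype had an insertion outside the mating-type cassettes in that run, so that run and genotype cannot be told apart. The single mutants had none. A count of 0 allows up to 0.283 per 10000 in *sgs1*Δ and 0.553 in *exo1*Δ.

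In *rtt105*Δ mp insertions occurred at 0.214 per 10000 (0.0923 to 0.421) and in *rad27*Δ at 0.0488 (0.0133 to 0.125), or 0.0666 without the colonies labelled 37°C and 0.0838 with those labelled 30°C alone. Neither passed against *mre11*-H125N (adjusted p = 0.872 and 1, Fisher's exact test), and *rtt105*Δ against *rad27*Δ did not pass after adjustment over 5 comparisons (4.38 times, adjusted p = 0.0631, Fisher's exact test). With the *rad27*Δ colonies labelled 30°C alone this ratio was 2.55 (adjusted p = 0.529, Fisher's exact test). The frequency in *sgs1*Δ *exo1*Δ was 7.66 times that in *rtt105*Δ and 33.5 times that in *rad27*Δ, or 24.6 and 19.5 times with these smaller *rad27*Δ colony numbers, which was not tested. As a share of insertions outside the mating-type cassettes, mp took 9 of 76 in *sgs1*Δ *exo1*Δ (11.8%, 5.56 to 21.3), 8 of 560 in *rtt105*Δ (1.43%, 0.619 to 2.80) and 4 of 328 in *rad27*Δ (1.22%, 0.333 to 3.09). By run, *rtt105*Δ had 8 of 520 in run 8 and 0 of 40 in run 7, and all 4 of *rad27*Δ were among 258 insertions of run 3.

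*sgs1*Δ *exo1*Δ, which had the most mp insertions, had no mitochondrial one among 76 insertions outside the cassettes, which allows up to 3.95%. *sgs1*Δ had 3 mitochondrial and 0 mp insertions of 42, and the latter count allows an mp share of up to 7.14%. The 95% intervals of these genotypes overlapped for both sequences, and their insertions came from different runs. The difference between them was not tested.

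The lengths of the mp segments are given by genotype. The 4 of *rad27*Δ were 47, 47, 48 and 49 bp long. In this mutant 18.3% of nuclear segments were shorter than all of them and 72.1% longer than all of them, around a nuclear median of 60 bp. The 8 of *rtt105*Δ were 49, 68, 73, 85, 118, 160, 219 and 271 bp long, with a median of 101.5 bp beside the nuclear 137.5 bp. The 9 of *sgs1*Δ *exo1*Δ were 104 to 320 bp long, with a median of 163 bp beside a nuclear median of 145 bp among 33 segments. The lengths in *rad27*Δ did not overlap with those in *sgs1*Δ *exo1*Δ and touched those in *rtt105*Δ only at 49 bp. Nuclear segments differed between these genotypes in the same direction. Those under 100 bp were 89.7% in *rad27*Δ, 28.0% in *rtt105*Δ and 12.1% in *sgs1*Δ *exo1*Δ. These lengths were not tested.

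The mp segments lay between positions 1131 and 6267 of their sequence, whose full extent was not given in the sources used here. In stretches of 1 kb there were 5 midpoints from 1001 to 2000, 4 from 2001 to 3000, 2 from 3001 to 4000, 2 from 4001 to 5000, 5 from 5001 to 6000 and 3 from 6001 on. The 4 of *rad27*Δ were at 3302 to 3350, 5066 to 5112, 5335 to 5381 and 6096 to 6143, all on the minus strand but the last. Those of *rtt105*Δ were at 1492 to 1710, 1542 to 1659, 1761 to 1833, 2248 to 2518, 4453 to 4537, 5856 to 6015, 6104 to 6171 and 6219 to 6267. Those of *sgs1*Δ *exo1*Δ were at 1131 to 1450, 1842 to 1945, 2100 to 2227, 2152 to 2284, 2883 to 3098, 3526 to 3764, 4661 to 4915, 5244 to 5406 and 5435 to 5593. The ranges of the 3 genotypes overlapped.

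There were 5 overlapping pairs of mp segments and none with both ends within 5 bp. The 47-bp *rad27*Δ segment at 5335 to 5381 lay wholly inside the *sgs1*Δ *exo1*Δ segment at 5244 to 5406, and the *rad27*Δ segment at 6096 to 6143 shared 40 bp with an *rtt105*Δ segment. In *rtt105*Δ, the segment at 1542 to 1659 (plus) lay inside that at 1492 to 1710 (minus), the only overlapping pair, mitochondrial ones included, on opposite strands. Over all genotypes, 7 of 21 mp segments were on the plus strand (33.3%, 14.6 to 57.0; exact binomial test, two-sided, p = 0.189), with 1 of 4 in *rad27*Δ, 3 of 8 in *rtt105*Δ and 3 of 9 in *sgs1*Δ *exo1*Δ.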

How the data were processed

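The *Break-Ins* lists of repair products at *MAT***a** were used. The authors filtered, merged and aligned reads, required an insertion of over 10 bp, collapsed redundant reads and placed each donor on the R64 genome. The deposited lists give the start, end and strand of each donor segment and no read count, so sequencing depth is unknown. Colonies per library were taken from the labels, and starts were printed after adding 1 to the listed start.

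Members and lists were chosen with earlier results of these data known. Nuclear segments were those more than 700 bp from mating-type genes, 400 bp from Ty reading frames and 500 bp from rDNA. Mating-type cassettes are here the reference positions within 700 bp of those genes, while the strains carried *hml*::*ADE1* and *hmr*::*ADE1*. Mitochondrial genes came from the RefSeq table of the R64 assembly, with each base given to a single class. Every mitochondrial gene overlapped by at least 1 bp was named. No genome sequence was used here, so no donor sequence is printed.

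Frequencies, shares and lengths (as a median test) were compared by two-sided Fisher's exact tests at a threshold of 0.05, with exact 95% Clopper-Pearson intervals. The p-values of frequencies, and of shares over all runs, were adjusted by Benjamini-Hochberg over 15 or 5 comparisons. Other p-values were not adjusted. Tests were run on simulated data first. Limits at a count of 0 use 3 counts. Intervals and limits cover counting error only. Alternatives were segments in place of insertions, near-identical segments (5 bp) taken once, insertions with a single donor, the chi-square test, other colony numbers, single runs, Ty left out, other length and gene rules. The comparison of the *rtt105*Δ runs was added after the data had been examined. No list was assigned to *yku70*Δ, because the deposited list of libraries names the *rev3* list for it. The complex list of *rtt105*Δ *rad1*Δ holds no donor. The colony number that the study gives for *rad27*Δ equals the sum of the libraries labelled 23°C and 30°C (600672) and leaves out the 219360 colonies labelled 37°C. Its count of mtDNA insertions in *rad27*Δ is also lower than the 3 found here, for a reason that is not stated. Whether the pooled *rad27*Δ lists hold insertions of the libraries labelled 37°C is not stated, and all 14 libraries were the main denominator. The study also normalized colonies by HO cutting, which was not done here. Calculations used Python, NumPy, pandas and SciPy.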

Additional observations from a re-analysis of the deposited data

Results flagged for a closer look

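A pair of deposited lists is named for a combination of *rtt105* and RFA1-t33, which no library here carries, and entered no comparison. Of their 281 segments, 257 were mitochondrial (91.5%) and 2 lay on mp. The mitochondrial share is above that in any list used, and the signal in data outside the comparisons is why they are shown. The deposited list of libraries names them for the *rad27* RFA1-t33 libraries, while the lists that carry the name of that genotype held 1 mitochondrial segment of 69 (1.45%). Their genotype is not settled, so no frequency is given.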

How the results depend on the processing

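Over 29 results and 185 alternative values, 172 kept their direction and their side of the threshold. Many of these could not have changed. Taking near-identical segments once removed no mitochondrial or mp segment, and every mp segment was already a single donor. Other colony numbers for a genotype left the values of comparisons without it as they were. A further 4 shares of bases or segments in genes, which have no test, ranged from 37.8% to 44.2%, beside 42.3% in the main setting. Another 2, the share in *rtt105*Δ minus that in *rtt105*Δ *rad1*Δ and in *rfa1*-t33, fell to 0 with the smaller run of *rtt105*Δ alone. With the colonies of the first library alone, *rtt105*Δ minus *rtt105*Δ *tel1*Δ was 0.798 mitochondrial insertions per 10000 colonies and no longer passed. The chi-square test made 2 calls that Fisher's exact test did not, *rfa1*-t33 *rad27*Δ against *mre11*-H125N for mitochondrial insertions (0.668 per 10000, from 1 insertion) and *rtt105*Δ minus *rad27*Δ for mp (0.165 per 10000). With the smaller sequencing run of *rtt105*Δ alone, the share of mitochondrial insertions in *rtt105*Δ turned to -0.334 percentage points against *rtt105*Δ *rad27*Δ, -5.26 against *rtt105*Δ *tel1*Δ and -0.915 against *rad27*Δ, since that run holds none. Counting insertions in place of segments turned the difference in complex insertions between mitochondrial and nuclear donors to -1.16 percentage points. None of these turned values passed. The lengths could not be compared in the smaller run, which has no mitochondrial segment. No paired analysis was possible because the lists pool the libraries of a genotype and carry no replicate number, and leaving out single libraries was not run for the same reason. The number of colonies limits every genotype without a member.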
